A study of Mus musculus with 6 samples.

Results

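The genes described here are 10 members of the prostanoid system, 6 that make prostanoids (Ptgs1, Ptgs2, Ptges, Ptges3, Hpgds and Tbxas1) and 4 that encode receptors (Ptgir, Ptger2, Ptger3 and Ptger4). They were taken by symbol from the 24346 genes of each deposited table, and all 10 were listed. The tables come from RNA sequencing of mouse splenic cells sorted on CD11c, a surface integrin chain of dendritic cells, with an autoMACS magnetic sorter. In 3 libraries the cells had been treated with IL-33, an alarmin of the IL-1 family, and in the other 3 with phosphate-buffered saline (PBS). The sources used here do not give dose, time, strain, age or whether treatment was in the animal or in culture. Nor do they say whether replicates are separate animals or cultures, so each p-value reflects only library-to-library spread, possibly of technical origin.

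Prostanoids are short-lived lipid mediators made from arachidonic acid, which phospholipases release from membranes. The cyclooxygenases Ptgs1 (COX-1, largely constitutive) and Ptgs2 (COX-2, inducible) turn it into prostaglandin H2, which terminal synthases convert to prostaglandin E2, prostaglandin D2, thromboxane A2 or prostacyclin. Each product acts on its own G protein-coupled receptors. In dendritic cells prostaglandin E2 is known to act on maturation, migration and cytokine output through its receptors EP2 and EP4, which raise cyclic AMP.

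Levels are in FPKM, that is, fragments divided by transcript length and by a measure of library size. How that size was set is not stated. Levels are given as mean ± SD with n = 3 per group. Because FPKM is scaled per length, levels of different genes may be compared. A change is the IL-33 mean minus the PBS mean of log2(FPKM + 1), with its standard error (SE), from a limma model of the 11518 genes that reached 1 FPKM in 3 or more libraries. A gene was called when its Benjamini-Hochberg adjusted p over those genes was below 0.05. Of the 10 genes 9 were tested, each at 1 FPKM or more in all 6 libraries, and Ptges was too low to test. Where another gene was below 1 FPKM in every library of 1 group, it passed only through the other group. The direction of its change was then fixed by the filter.

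Absolute depth is unknown for FPKM tables. Taking PBS replicate 1 as 1, the steps between low values put the library sizes used for scaling at 0.946 to 1.22, with overlapping groups. These are relative depths only if each library was scaled by its own fragments, which is not stated. The FPKM totals did separate the groups, at 614522 to 641412 with PBS and 778391 to 841884 with IL-33. Rescaling the libraries to equal totals therefore shifted the median change of all tested genes from 0.01 to -0.29. All 11 dendritic cell markers of the list were detected, of which 6 were called higher and 4 lower. Their sums were 20600 to 22100 FPKM with PBS and 30600 to 33200 FPKM with IL-33. Most of the sum in every library came from Cd74, H2-Aa and H2-Ab1, so it says little of the other markers. On average Cd74 went from 9740 to 14000 FPKM, H2-Aa from 6370 to 9270 and H2-Ab1 from 4640 to 7510. The 4 markers called lower were Flt3, Zbtb46, Kit and Ciita. Itgax, which encodes CD11c, had a mean of 241 ± 11.8 FPKM in the PBS group and 283 ± 15.1 FPKM in the IL-33 group. Zbtb46, a transcription factor of conventional dendritic cells, was at 36.9 ± 0.745 and 23.5 ± 1.94 FPKM. Of 8 type 1 conventional dendritic cell markers 3 were higher and 5 lower (sums of 315 to 349 and 504 to 580 FPKM with PBS and IL-33). The 5 lower were Xcr1, Clec9a, Cd8a, Cadm1 and Tlr3, and the 3 higher were Itgae, Batf3 and Cd24a. Batf3, which rose from 82.4 ± 5.61 to 236 ± 20.1 FPKM, is on this list and the dendritic cell list. Together with Cd24a, which rose from 104 ± 22.1 to 202 ± 20.1 FPKM, it made up most of the mean type 1 sum in both groups. Xcr1 fell from 15.2 ± 1.29 to 7.65 ± 0.835 FPKM and Clec9a from 32.5 ± 2.99 to 21.2 ± 1.54 FPKM. Of 8 type 2 markers 4 were higher and 1 lower (567 to 677 and 659 to 800 FPKM). The sort also held transcripts of other cells. Plasma cell markers were higher (7 of 8, sums of 155 to 210 and 444 to 481 FPKM with PBS and IL-33), and 4 of 7 plasmacytoid dendritic cell markers were lower (374 to 579 and 355 to 460 FPKM). The plasma cell marker Tnfrsf17 was below 1 FPKM in every PBS library, so its direction was fixed by the filter. Sdc1, also called higher, was at 0.748 FPKM in PBS replicate 3 and needed the IL-33 libraries to pass the filter. Of 10 B cell markers 3 were lower and none higher (337 to 819 and 370 to 500 FPKM). Of 10 tested monocyte markers 3 were higher and 3 lower (1430 to 1910 and 1940 to 2980 FPKM). Among the higher ones F13a1 was at 0.999 FPKM in PBS replicate 3 and needed the IL-33 libraries to pass the filter. The part of these cells and of the dendritic cell subsets in the results was not tested, and the other lists stand beside the results below. In such bulk libraries fewer cells of a type and less RNA per cell cannot be told apart.

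With IL-33 the transcripts of the prostacyclin receptor and of thromboxane synthase rose. Ptgir rose 5.36-fold and Tbxas1 2.31-fold, and their calls held under all 16 alternative settings tried. Smaller differences were called for Ptger4 and Ptger2, which were higher, and for the inducible cyclooxygenase Ptgs2, which was lower. In total 4 of the 9 tested genes were higher, where 28.0% of all tested genes were called higher, and 1 was lower, where 25.5% were called lower. The total of 5 called genes is near the 53.6% called among all genes in either direction, so being called is not particular to the prostanoid genes. A called change of at least 2-fold on the log2(FPKM + 1) scale was met by 2 of the 9, Ptgir and Tbxas1, and by 5.02% of all tested genes. The median change of the 9 was 0.35, beside 0.01 for all tested genes.

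**Figure D1:**
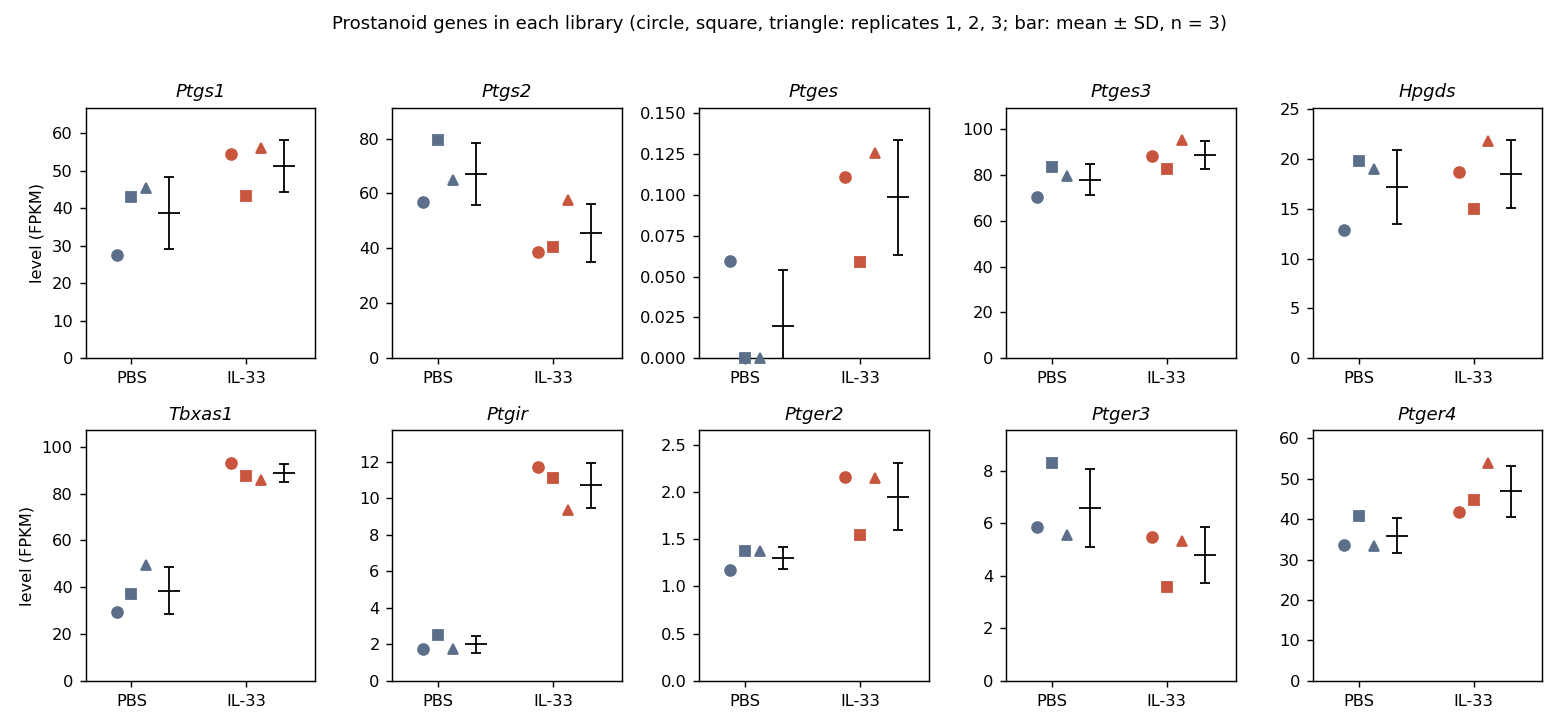
Level in FPKM (vertical axes, linear, from 0, each panel with its own scale) of the 10 prostanoid genes in 3 PBS and 3 IL-33 libraries; symbols are replicates and the bar with caps is mean ± SD, cut at 0 for Ptges. For Ptgir and Tbxas1 the groups lie far apart, while for Ptgs1, Ptgs2, Ptges, Ptges3 and Hpgds they overlap.

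Cyclooxygenases commit arachidonic acid to the pathway, and both were well expressed. Ptgs2 stood at 56.9, 79.4 and 65.0 FPKM with PBS and at 38.8, 40.6 and 57.6 FPKM with IL-33, in the order of replicates 1 to 3 used throughout. IL-33 replicate 3 lay just above PBS replicate 1, so the groups overlapped by that pair. The mean went from 67.1 ± 11.4 to 45.6 ± 10.4 FPKM, a log2 change of -0.56 (SE 0.17, 95% interval -0.96 to -0.15, limma adjusted p = 0.0299). The call was lost without IL-33 replicate 1 (-0.45, adjusted p = 0.0989), IL-33 replicate 2 (-0.48, 0.0881), PBS replicate 2 (-0.43, 0.0916) or PBS replicate 3 (-0.57, 0.0549), the alternatives spanning 0.00368 to 0.0989. It was also lost without an expression filter (-0.56, adjusted p = 0.0592), and rescaling to equal totals gave -0.89 (adjusted p = 0.00368).

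Ptgs1, the cyclooxygenase of resting cells and platelets, stood at 27.6, 42.9 and 45.5 FPKM with PBS and at 54.4, 43.3 and 56.0 FPKM with IL-33. All IL-33 libraries except replicate 2 were above every PBS library, and PBS replicate 1 was the lowest of the 6. The log2 change of 0.42 (SE 0.19, 95% interval -0.03 to 0.87) did not pass (limma adjusted p = 0.1). Without PBS replicate 1 the change was 0.20, and with equal totals it was 0.09.

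The balance of the 2 cyclooxygenase genes differed between the groups in every library, on a measure that does not depend on how a library is scaled. The ratio of Ptgs2 to Ptgs1 in FPKM was 2.06, 1.85 and 1.43 in the PBS libraries and 0.712, 0.937 and 1.03 in the IL-33 libraries. The groups did not overlap. On the log2 scale, with 0.1 FPKM added to each value, the ratio differed by -0.99 between IL-33 and PBS, and leaving out 1 library gave -1.14 to -0.84. An exact two-sided permutation test gave p = 0.1, which is the lower limit for groups of 3 and 3. Ptgs2 made up 63.7% ± 4.39 of the summed FPKM of both genes with PBS and 46.9% ± 4.73 with IL-33. That sum itself lay between 84.5 and 122 FPKM with PBS and between 83.8 and 114 FPKM with IL-33.

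**Figure D2:**
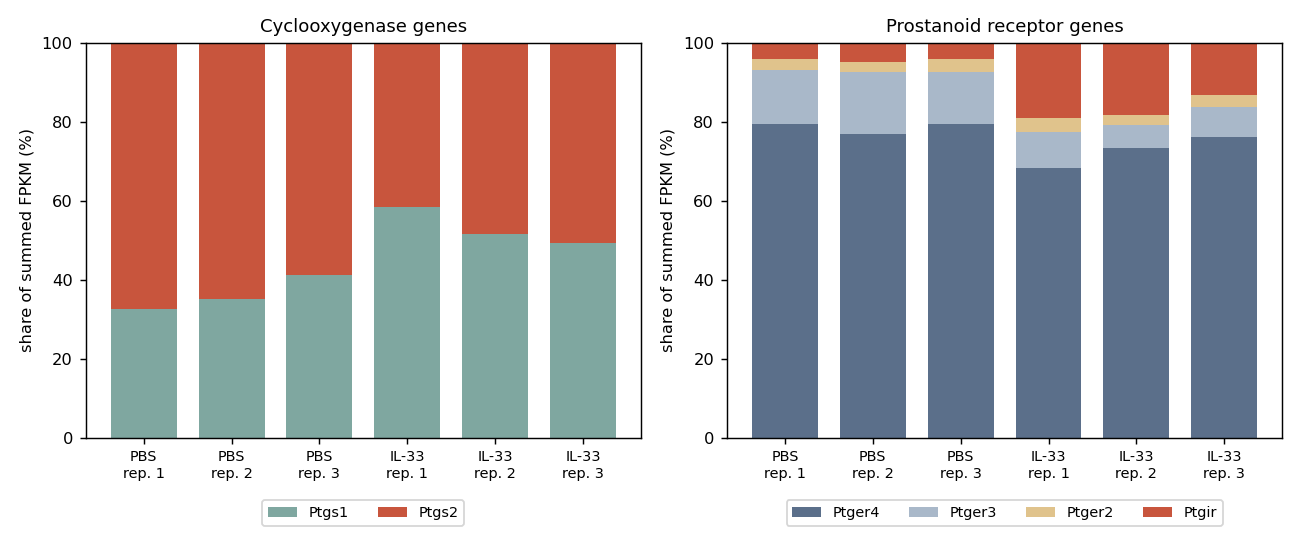
Share of summed FPKM (vertical axes, %) in each library, for the cyclooxygenase genes on the left and the 4 member receptor genes on the right, without Ptger1. Ptgs2 has 58.8% to 67.3% of the cyclooxygenase sum in the PBS libraries and 41.6% to 50.7% in the IL-33 libraries, and Ptgir goes from 4.08% to 4.79% of the receptor sum to 13.2% to 19.2%.

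The promoter window of Ptgs2 is shown because it is the called gene that was lower, and those of Tbxas1 and Ptgir follow with the members that moved most. Each window runs from 250 bases before to 50 bases after the gene start of RefSeq (GRCm38.p6, the assembly also called mm10), and all 10 genes had one. Capitals mark matches, on either strand, to the cyclic AMP response element core TGACG, the E-box CACGTG, the C/EBP palindrome TTGCGCAA, the STAT spacing (TTC and GAA with 4 bases between), the PU.1 core GAGGAA and the TATA box TATAAA. A degenerate kappaB motif was searched as well and was found in 8.46% of all windows, among the 10 genes in Ptges3. A match describes letters and is not evidence of binding. Ptgs2 lies on the plus strand of chromosome 1, from 150100031 to 150108227 in GENCODE M21, and its window is chr1:150099781-150100080.
Ptgs2: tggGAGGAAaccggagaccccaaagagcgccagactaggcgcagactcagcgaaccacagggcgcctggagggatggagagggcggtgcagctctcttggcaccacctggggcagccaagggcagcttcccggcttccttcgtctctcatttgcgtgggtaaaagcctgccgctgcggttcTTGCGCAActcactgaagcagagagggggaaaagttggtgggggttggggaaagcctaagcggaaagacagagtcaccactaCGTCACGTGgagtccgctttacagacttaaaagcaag
The C/EBP palindrome, at bases 182 to 189, was found in 0.183% of all 32851 windows and in no other of the 10 genes. A minus-strand TGACG (bases 264 to 268) overlaps an E-box (bases 267 to 272). TGACG was found in 20.8% of all windows, among the 10 genes also in Ptges3, and the E-box in 7.15%. The PU.1 core, here at bases 4 to 9, was in 28.3% of all windows and in 6 of the 10 genes.

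Terminal synthases decide which prostanoid is made. Tbxas1, which encodes the thromboxane A2 synthase of macrophages and platelets, stood at 29.3, 37.1 and 49.4 FPKM with PBS and at 93.1, 87.7 and 85.9 FPKM with IL-33. Every IL-33 library was above every PBS library, and the IL-33 values varied little (coefficient of variation 4.22%, compared with 26.2% with PBS). The mean rose from 38.6 ± 10.1 to 88.9 ± 3.76 FPKM, a log2 change of 1.21 (SE 0.17, 95% interval 0.82 to 1.61, limma adjusted p = 0.00139). This lay at percentile 97.8 of the changes of all tested genes. Over the alternatives the change lay between 0.88 (equal totals) and 1.40 (without PBS replicate 3). With IL-33 Tbxas1 had the highest mean level of the 10 genes, its range overlapping that of Ptges3, and with PBS its range overlapped those of Ptgs1 and Ptger4.

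Tbxas1 is on the plus strand of chromosome 6, from 38875404 to 39084585. The gene overlaps Hipk2 (8.27 and 9.56 FPKM with PBS and IL-33) by 762 bases on the opposite strand. It also overlaps the antisense genes Gm42962 (67228 bases) and 1700025N23Rik (3721 bases, 0.317 and 0.0973 FPKM) and holds the snoRNA Gm23010 (126 bases), and whether counting used the strand is not given. Its RefSeq window, chr6:38918736-38919035, starts inside the longer GENCODE gene.
Tbxas1: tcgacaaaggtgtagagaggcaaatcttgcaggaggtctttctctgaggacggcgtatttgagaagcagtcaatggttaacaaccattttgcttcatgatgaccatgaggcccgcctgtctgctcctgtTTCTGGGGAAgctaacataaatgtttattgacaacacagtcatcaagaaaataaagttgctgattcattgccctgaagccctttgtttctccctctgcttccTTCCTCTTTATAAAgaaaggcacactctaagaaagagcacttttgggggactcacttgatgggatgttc
The window holds TATAAA at bases 240 to 245, overlapping a minus-strand match at bases 238 to 243, and was the only one of the 10 with this motif, which 13.6% of all windows held. A minus-strand PU.1 core stands at bases 232 to 237, next to it. The STAT spacing at bases 130 to 139 was found in 6.95% of all windows, and among the 10 genes also in Ptges.

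Tbxas1 and Ptgs1 are also genes of macrophages and platelets, so the marker levels of those cells are given here. Of 13 macrophage markers 4 were called higher and none lower, and their summed level was 2700 to 4580 FPKM with PBS and 3970 to 5360 FPKM with IL-33, overlapping ranges with a 1.28-fold ratio of means. No macrophage marker was at 0 in all libraries. PBS replicate 1 had the lowest macrophage sum (2700 FPKM) and also the lowest Tbxas1, Ptgs1 and Hpgds, and within the IL-33 group replicate 2 had the lowest macrophage sum (3970 FPKM), Ptgs1 and Hpgds. For Tbxas1 the IL-33 values were 93.1, 87.7 and 85.9 FPKM, beside macrophage sums of 5050, 3970 and 5360 FPKM. Its PBS values were 29.3, 37.1 and 49.4 FPKM, beside sums of 2700, 3980 and 4580 FPKM. Of 10 platelet and megakaryocyte markers 4 were tested, of which 1 was higher and 1 lower, and 4 of the 10 were below 1 FPKM in every library. Their summed level was 9.87 to 15.4 FPKM with PBS and 10.5 to 25.6 FPKM with IL-33. The platelet marker called higher, Itga2b, was below 1 FPKM in every PBS library, so its direction was fixed by the filter. The part of these cells in the change of Tbxas1 was not tested.

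Hpgds, the hematopoietic prostaglandin D2 synthase of mast cells, eosinophils and other leukocytes, was at 12.9, 19.8 and 19 FPKM with PBS and at 18.7, 15.0 and 21.8 FPKM with IL-33. The groups overlapped. Its log2 change of 0.11 (SE 0.18, 95% interval -0.32 to 0.54, limma adjusted p = 0.64) did not pass under any setting. The sign turned with equal totals (-0.21), with library weights (-0.08), without IL-33 replicate 3 (-0.01) and without PBS replicate 1 (-0.07).

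Some markers of the cells in which Hpgds is best known differed, and for some of these the filter fixed the direction. Of 10 eosinophil markers 8 were called higher and none lower, with sums of 220 to 312 FPKM with PBS and 882 to 1260 FPKM with IL-33 and no marker at 0 in all libraries. Of the 8 called, Epx, Ear1 and Ear6 were below 1 FPKM in every PBS library, so their direction was fixed by the filter. Alox15 reached 1 FPKM with PBS only in replicate 1 (1.3 FPKM), so it too needed the IL-33 libraries to pass. Of 14 mast cell and basophil markers 8 were tested, 5 being higher and 1 lower, and 3 of the 14 were below 1 FPKM in every library. Among the 5, Cpa3, Mcpt8, Prss34 and Cd200r3 were below 1 FPKM in every PBS library, so only a higher call was open to them. Il4, which reached 1 FPKM with PBS only in replicate 1 (1.24 FPKM), also needed the IL-33 libraries to pass the filter. That list summed to 47.0 to 51.5 FPKM with PBS and 51.1 to 59.4 FPKM with IL-33, most of it from Kit in the PBS libraries, which is also on the dendritic cell list and fell from 38.3 ± 3.19 to 21.7 ± 4.19 FPKM. Without Kit the sums were 9.65 to 11.2 FPKM in the PBS group and 24.6 to 40.4 FPKM in the IL-33 group, with the basophil protease gene Mcpt8 rising from 0.32 ± 0.197 to 8.57 ± 3.07 FPKM. The part of these cells in the level of Hpgds was not tested. Hpgds relative to Tbxas1 was 0.44, 0.533 and 0.384 in the PBS libraries and 0.201, 0.172 and 0.254 in the IL-33 libraries. These ratios did not overlap, and differed by -1.12 on the log2 scale (-1.27 to -0.99 with 1 library left out, exact permutation p = 0.1).

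Prostaglandin E2 synthases were represented by a high and a nearly absent transcript. Ptges3, the cytosolic synthase that is also the HSP90 cochaperone p23, was at 70.4, 83.5 and 79.7 FPKM with PBS and at 88.1, 82.8 and 95.2 FPKM with IL-33. Its log2 change of 0.19 (SE 0.09, 95% interval -0.02 to 0.39, limma adjusted p = 0.106) did not pass, and the groups overlapped. The change was -0.15 with equal totals, -0.09 with quantile normalization and -0.09 with cyclic loess. Ptges, the inducible microsomal synthase that is usually coupled to COX-2, was listed at 0.0594, 0 and 0 FPKM with PBS and at 0.111, 0.0589 and 0.126 FPKM with IL-33. With PBS libraries listed at 0 no fold is given, and the gene was too low to be tested. The ratio of Ptges to Ptges3 overlapped between the groups (exact permutation p = 0.2).

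Among the receptors Ptgir, which encodes the Gs-coupled prostacyclin receptor IP, moved most. It stood at 1.72, 2.54 and 1.76 FPKM with PBS and at 11.7, 11.1 and 9.38 FPKM with IL-33. The lowest IL-33 value was far above the highest PBS value. The mean rose from 2.01 ± 0.464 to 10.7 ± 1.23 FPKM, a log2 change of 1.97 (SE 0.13, 95% interval 1.66 to 2.28, limma adjusted p = 0.000161). It lay at percentile 99.2 of all tested genes and was the 117th largest change in size among them. Alternatives gave 1.70 (equal totals) to 2.38 (pseudocount of 0.1), and leaving out 1 library gave 1.91 to 2.1. In the order of mean levels Ptgir was eighth of the 10 genes with PBS, below Ptger3, and seventh with IL-33, above it, with ranges apart from those of Ptger3 in both groups. Myeloid marker lists also differed: beside the eosinophil list above, 9 of 12 tested neutrophil markers were higher and 2 lower, with sums of 532 to 859 FPKM with PBS and 1260 to 2540 FPKM with IL-33 and none at 0 in all libraries. The neutrophil marker Mpo was below 1 FPKM in every PBS library, so its direction was fixed by the filter. The part of these cells in the change of Ptgir was not tested.

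Ptgir lies on the plus strand of chromosome 7, from 16906490 to 16910905, and no other annotated gene overlaps it. Its promoter window is chr7:16906240-16906539.
Ptgir: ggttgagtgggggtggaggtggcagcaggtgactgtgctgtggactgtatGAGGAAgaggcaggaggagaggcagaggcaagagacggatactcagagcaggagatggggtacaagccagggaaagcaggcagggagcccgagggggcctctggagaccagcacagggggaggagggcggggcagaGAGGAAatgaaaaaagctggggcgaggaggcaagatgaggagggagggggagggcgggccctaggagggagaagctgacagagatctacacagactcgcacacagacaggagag
The window holds the PU.1 core at bases 51 to 56 and 187 to 192 and none of the other motifs searched. Its GC content was 62.0%, compared with 44.3% for Tbxas1, 59.3% for Ptgs2 and a median of 52.7% over all windows.

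Ptger4, the Gs-coupled prostaglandin E2 receptor EP4, was the most abundant receptor of the 4 in all 6 libraries. It was at 33.5, 40.9 and 33.4 FPKM with PBS and at 41.9, 44.8 and 53.9 FPKM with IL-33, so that the groups were apart by a narrow margin. The log2 change was 0.37 (SE 0.12, 95% interval 0.10 to 0.65, limma adjusted p = 0.0316). The call was lost without IL-33 replicate 2 (0.40, adjusted p = 0.058), IL-33 replicate 3 (0.27, 0.0839), PBS replicate 1 (0.33, 0.0875) or PBS replicate 3 (0.33, 0.0831). It was also lost with equal totals (0.04, adjusted p = 0.796), quantile normalization (0.21, 0.199), cyclic loess (0.22, 0.176), library weights (0.29, 0.0556) and no filter (0.37, 0.0554), in a range of 0.0211 to 0.796. Ptger4 overlaps Ttc33 (11 and 12.3 FPKM) on the opposite strand over 11676 bases.

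Ptger2, the other Gs-coupled prostaglandin E2 receptor (EP2), was low. It overlaps the antisense gene Gm17173 over 15626 bases and Gm49364, also on the opposite strand, over 1505 bases. It was at 1.17, 1.37 and 1.37 FPKM with PBS and at 2.16, 1.54 and 2.15 FPKM with IL-33, without overlap. Its log2 change was 0.35 (SE 0.12, 95% interval 0.06 to 0.63, limma adjusted p = 0.0436). Of the 6 fits that left out a library, only the one without IL-33 replicate 2 kept the call (0.45, adjusted p = 0.023). The others gave 0.30 without IL-33 replicate 1 (adjusted p = 0.131), 0.30 without IL-33 replicate 3 (0.12), 0.31 without PBS replicate 1 (0.112), 0.37 without PBS replicate 2 (0.0829) and 0.37 without PBS replicate 3 (0.0688). The call was lost too with equal totals (0.14, 0.326), library weights (0.26, 0.0992), no filter (0.35, 0.0567) and the replicate number as a block (0.35, 0.0807), in a range of 0.0175 to 0.326. Per library the ratio of Ptger4 to Ptger2 ran from 24.4 to 29.8 with PBS and from 19.4 to 29.2 with IL-33, and these overlapped (difference -0.15 on the log2 scale, exact permutation p = 0.6).

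Ptger3, the mainly Gi-coupled prostaglandin E2 receptor EP3, was at 5.87, 8.30 and 5.57 FPKM with PBS and at 5.48, 3.58 and 5.33 FPKM with IL-33. The lowest PBS value and the highest IL-33 value nearly touched. The log2 change of -0.39 (SE 0.18, 95% interval -0.81 to 0.03, limma adjusted p = 0.106) did not pass. It did with equal totals (-0.68, adjusted p = 0.0102) and with library weights (-0.62, 0.0227), in a range of 0.0102 to 0.297. In total 5 of the 9 tested genes had groups that did not overlap (Tbxas1, Ptgir, Ptger2, Ptger3 and Ptger4), beside 63.6% of all tested genes. Of these, 4 were higher with IL-33 (32.7% of all tested genes) and Ptger3 was lower (30.9%).

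Among the transcripts of the 4 member receptors, the make-up shifted towards Ptgir. Ptger1, which is not among the 4, had means of 27.6 ± 3.7 FPKM (PBS) and 24.0 ± 2.03 FPKM (IL-33). With Ptger1 counted every share below would be smaller. Of the summed FPKM of the 4 receptor genes, Ptgir held 4.35% ± 0.38 with PBS and 16.9% ± 3.18 with IL-33. Ptger3 held 14.3% ± 1.23 and 7.45% ± 1.54, and Ptger4 78.5% ± 1.32 and 72.6% ± 3.97. The ratio of Ptgir to Ptger4 was 0.0515, 0.0622 and 0.0527 with PBS and 0.281, 0.248 and 0.174 with IL-33. These ratios were apart, with a log2 difference of 2.00 (1.85 to 2.2 with 1 library left out, exact permutation p = 0.1). The sum of the 4 receptors was 42.1 to 53.1 FPKM with PBS and 61.0 to 70.8 FPKM with IL-33.

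**Figure D3:**
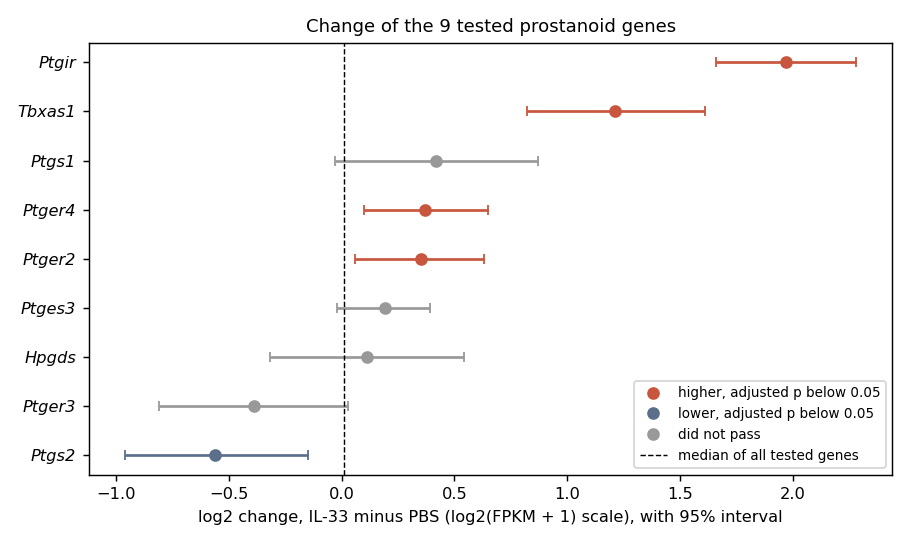
Change of the 9 tested prostanoid genes (horizontal axis, log2 units, IL-33 minus PBS), with points for estimates, bars for 95% intervals from limma and a dashed line at the median of all tested genes, 0.01. Ptgir at 1.97 and Tbxas1 at 1.21 lie apart from the other 7, which run from -0.56 to 0.42.

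The rest of the prostanoid pathway was described from 5 lists holding 54 genes, of which 40 were tested, 17 were higher and 6 lower, with a median change of 0.21. Over all tested genes 28.0% were called higher and 25.5% lower. With equal totals 10 were higher and 16 lower, so the direction of this total depends on the scaling. In the supply of arachidonic acid 4 of 9 tested genes were higher and none lower, beside those 28.0% and 25.5%. Daglb, a diacylglycerol lipase that makes the arachidonate ester later split by Mgll, rose from 13.3 ± 1.24 to 40.9 ± 5.46 FPKM (log2 change 1.55, SE 0.11, limma adjusted p = 0.000201). The acyltransferase gene Lpcat3, which puts arachidonate into phospholipids, rose by 0.69 (SE 0.07). Pla2g12a, a secreted phospholipase, rose by 0.75 (SE 0.14), and the monoacylglycerol lipase gene Mgll rose by 0.53 (SE 0.12). Mgll was low, with means of 0.856 ± 0.143 (PBS) and 1.68 ± 0.237 FPKM (IL-33). It was below 1 FPKM in every PBS library and passed the filter only through the IL-33 group, which fixed its direction. Pla2g4a, the cytosolic phospholipase A2 that mainly feeds cyclooxygenases, had means of 13.8 ± 2.96 FPKM (PBS) and 15.2 ± 1.31 FPKM (IL-33), a change that was not called (0.15, limma adjusted p = 0.446).

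Of the other prostanoid synthases 3 of 5 tested were higher and none lower, beside 28.0% and 25.5% of all tested genes. These were Cbr1 (0.69, SE 0.12), a carbonyl reductase acting on prostaglandin E2, Ptges2 (0.41, SE 0.10), a membrane-associated prostaglandin E synthase, and Fam213b (0.53, SE 0.14), a prostaglandin F synthase. The call of Fam213b was lost without IL-33 replicate 1 (0.44, limma adjusted p = 0.0637), IL-33 replicate 3 (0.48, 0.0558) or PBS replicate 1 (0.42, 0.0506). It was also lost with equal totals (0.19, adjusted p = 0.207), quantile normalization (0.35, 0.0681) and cyclic loess (0.35, 0.064), and that of Ptges2 was lost with equal totals (0.12, 0.353). The prostacyclin synthase gene Ptgis, whose product binds the receptor encoded by Ptgir, was at 9.93, 14.2 and 17.6 FPKM with PBS and at 10.2, 9.40 and 13.6 FPKM with IL-33. These values overlapped and the change of -0.29 (SE 0.21, limma adjusted p = 0.271) did not pass. Ptgds, the lipocalin-type prostaglandin D2 synthase, was listed at 0.228, 0.21 and 0.0939 FPKM in the PBS libraries and at 0 in the 3 IL-33 libraries, too low to be tested.

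Among genes of prostanoid transport and degradation 3 of 5 tested were higher and none lower, beside the same 28.0% and 25.5%. Ptgr1, a reductase that inactivates 15-keto prostaglandins and leukotriene B4, rose from 2.38 ± 0.14 to 7.26 ± 1.70 FPKM (log2 change 1.27, SE 0.15, limma adjusted p = 0.000891). Cbr3 rose by 0.78 (SE 0.13), and Ptgr2, a second 15-keto reductase, by 0.33 (SE 0.09). The call of Ptgr2 was lost without IL-33 replicate 1 (0.28, adjusted p = 0.0611), PBS replicate 1 (0.27, 0.0552) or PBS replicate 2 (0.32, 0.0537), with the replicate number as a block (0.33, 0.0543) and with equal totals (0.02, 0.879). Hpgd, the dehydrogenase that starts prostaglandin breakdown, was at 126, 207 and 180 FPKM with PBS and at 171, 98.8 and 148 FPKM with IL-33. It had a higher mean level than each of the 10 prostanoid genes in both groups, and its change of -0.30 (SE 0.24, limma adjusted p = 0.311) did not pass.

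Of the 5 other prostanoid receptors 2 were tested. Tbxa2r, the receptor for the product of Tbxas1, was at 1.67, 1.38 and 2.79 FPKM with PBS and at 0.96, 0.893 and 0.681 FPKM with IL-33, and fell (log2 change -0.65, SE 0.18, limma adjusted p = 0.0197). Being below 1 FPKM in every IL-33 library, Tbxa2r passed the filter only through the PBS group, which fixed its direction. The call was lost without IL-33 replicate 3 (-0.58, adjusted p = 0.0586) and with cyclic loess (-0.52, 0.055). The other tested gene, the prostaglandin E2 receptor gene Ptger1, was not called (-0.19, SE 0.11, limma adjusted p = 0.176). Its means of 27.6 ± 3.7 FPKM (PBS) and 24.0 ± 2.03 FPKM (IL-33) were above those of Ptger3, Ptger2 and Ptgir in both groups. The prostaglandin D2 receptor genes Ptgdr and Ptgdr2 and the prostaglandin F receptor gene Ptgfr were at most 0.266 FPKM in every library.

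Of 19 tested genes of cyclic AMP signalling, which acts behind the Gs-coupled receptors, 7 were higher and 5 lower, near the 28.0% and 25.5% called among all tested genes. Crem, which encodes cyclic AMP-responsive modulators of transcription, rose from 4.68 ± 0.65 to 9.90 ± 1.23 FPKM (log2 change 0.94, SE 0.12, limma adjusted p = 0.00107). Prkar2a, a regulatory subunit of protein kinase A, rose by 0.58 (SE 0.07). Pde7a, a phosphodiesterase that breaks down cyclic AMP, fell by 0.90 (SE 0.10), from 13.9 ± 1.89 to 6.93 ± 0.30 FPKM. The catalytic subunit gene Prkacb fell by 0.39 (SE 0.06) and the transcription factor gene Creb1 by 0.48 (SE 0.08). Marker levels of lymphocytes moved in the same libraries: 11 of 12 T cell markers were called lower and none higher, with sums of 249 to 459 FPKM with PBS and 126 to 133 FPKM with IL-33. All 10 NK cell markers were called lower, with sums of 643 to 817 FPKM and 249 to 391 FPKM. No marker of either list was at 0 in all libraries, and the part of these cells in the changes was not tested.

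**Figure D4:**
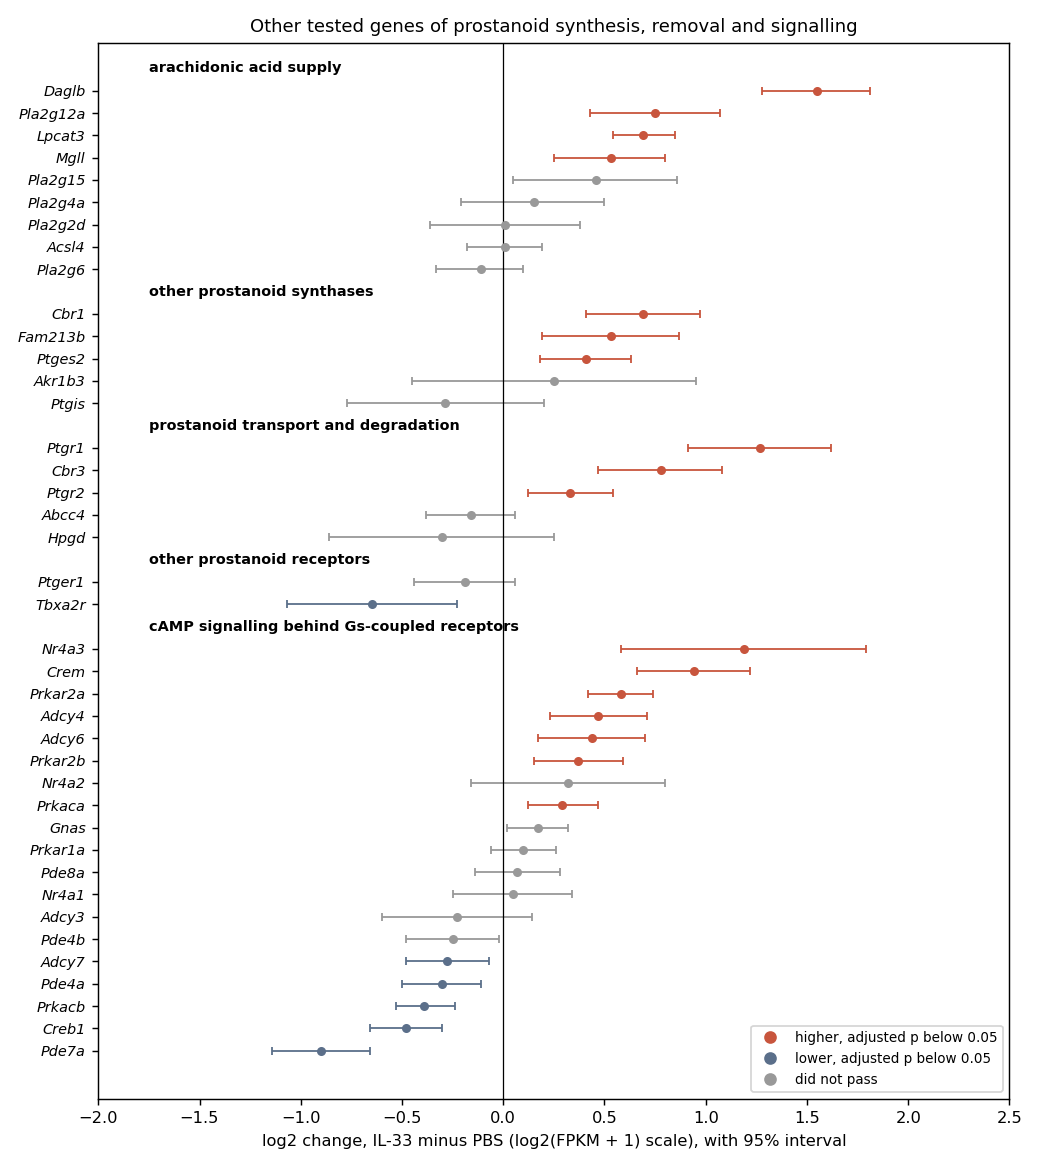
Change of the 40 tested genes of 5 further pathway lists (horizontal axis, log2 units, IL-33 minus PBS) with 95% intervals from limma; red, blue and grey mark higher, lower and not called. Calls are higher only in the lists of arachidonic acid supply, other synthases and degradation, while the cyclic AMP list is split 7 and 5.

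The genes whose log2(FPKM + 1) values were most like those of Ptgir over the 6 libraries were Tep1 (Pearson r = 0.9984), Clec7a (0.9983) and Mrpl30 (0.9981). For Tbxas1 they were Psmc5 (0.9997), Tmem106a (0.9992) and Acvrl1 (0.9989). These coefficients describe 6 points that fall into 2 groups, taken as the highest of 11518 genes, and carry no test. Clec7a, the glucan receptor dectin-1, had means of 78.6 ± 10.6 and 279 ± 22.9 FPKM with PBS and IL-33. The members of these sets differ widely in size of change, from 0.39 for Psmc5 to 1.82 for Clec7a.

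**Figure D5:**
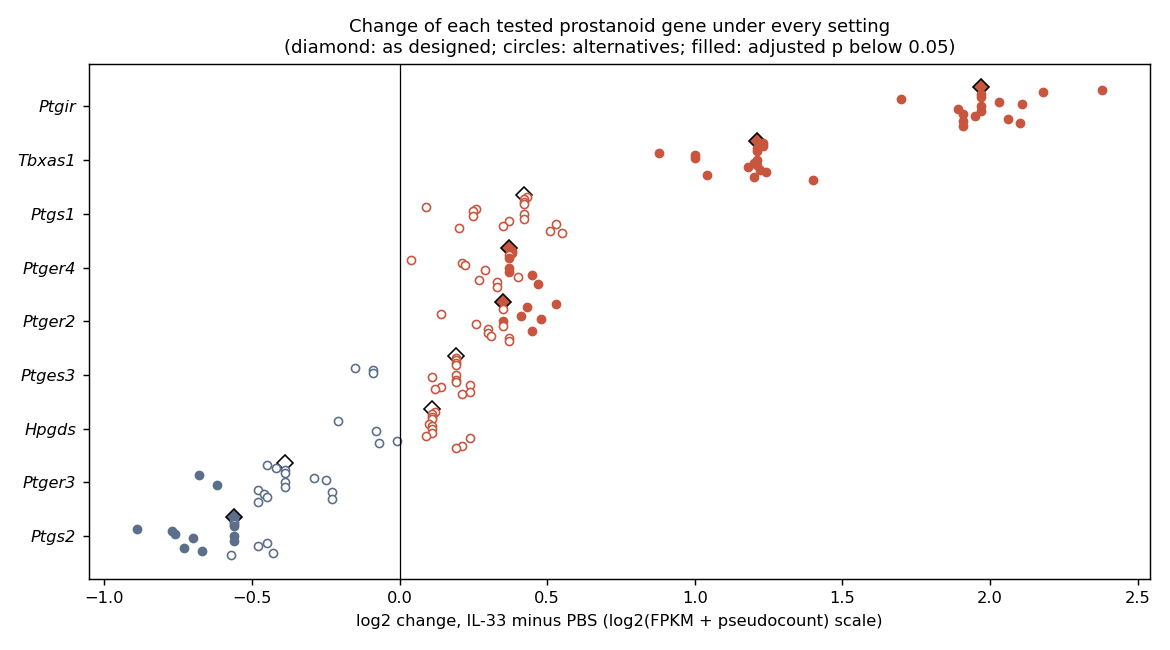
Change of each tested prostanoid gene (horizontal axis, log2 units, IL-33 minus PBS) as designed (diamonds) and under up to 16 alternatives (circles), filled where adjusted p was below 0.05. Ptgir and Tbxas1 are filled throughout, Ptgs2, Ptger4 and Ptger2 are mixed, and Hpgds and Ptges3 have circles on both sides of 0.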

How the data were processed

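RNA of CD11c-sorted mouse spleen cells was sequenced from a stranded mRNA kit, per the labels' protocols. Each library has a deposited table of FPKM values by gene symbol. Per the submitters' processing notes the tools were Bowtie2 2.2.3, Cuffnorm 2.2.1, SAMtools 0.1.19 and TopHat2 2.0.13, with build mm10. Annotation, scaling and strand setting are not stated there. FPKM has no counts, so no count test was run. Depth was only compared between libraries, and that comparison depends on the unstated scaling.

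Values were analysed as log2(FPKM + 1), which understates changes of low genes, with limma 3.58.1 (R 4.3.3), a variance trend and treatment as the only term. The model was tested on simulated data. P-values are two-sided and Benjamini-Hochberg adjusted over 11518 genes. Ratios of 2 genes (5 pairs, 0.1 FPKM added, p-values not adjusted) used an exact permutation test. Python 3.11.15, scipy 1.17.1 and matplotlib 3.10.9 were used for tables and figures, GENCODE M21 for positions and RefSeq for promoters. Alternatives were other pseudocounts, filters, scalings, variance settings, library weights, a replicate block and leaving out each library. Replicate numbers were not treated as pairs.

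The members and gene lists were chosen with earlier results of these data known. Genes named are the 10 members, up to 4 called genes per pathway list by adjusted p, and the 3 genes most like each of the 2 members that changed most. Other genes named were chosen after their values were seen. 1 result is not reported here.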

Additional observations from a re-analysis of the deposited data

How the results depend on the processing

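Ptgir and Tbxas1 kept direction and call under all 16 alternatives. Against 4 higher and 1 lower prostanoid genes as reported, there were 2 and 0 without a filter (in limma, with Ptgs2 at adjusted p = 0.0592), 2 and 2 with equal totals and 2 and 2 with library weights, and leaving out 1 library gave 2 to 3 higher and 0 to 1 lower. Equal totals gave 1280 higher and 5840 lower genes overall (18.0% of calls higher, compared with 52.4% as reported and 46.9% with quantile normalization) and 10 higher and 16 lower other pathway genes. Signs turned without a call for Ptges3 (-0.15 with equal totals, -0.09 with quantile normalization, -0.09 with cyclic loess) and for Hpgds (-0.21 with equal totals, -0.08 with library weights, -0.01 without IL-33 replicate 3, -0.07 without PBS replicate 1, within -0.07 to 0.24 over the 6 fits leaving out a library). The log2 ratio of Ptges to Ptges3 was 0.56 as reported and -0.08 with a pseudocount of 1, and that of Ptger4 to Ptger2 was -0.15 as reported, 0.02 with a pseudocount of 1 and 0.01 without IL-33 replicate 1 (-0.28 to 0.01 with a library left out). The cause of these differences was not tested. Same-numbered libraries had deviations from their group means that correlated at 0.07, -0.05 and 0.09, so the numbers were not taken as pairs. With the replicate block 3 prostanoid genes were higher and 1 lower, and Ptger2 was the member whose call was lost. FPKM values give no read depth, which limits what can be said of Ptges and of the genes listed at or near 0.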
